A study of Mus musculus with 37 samples.

Results

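The liver X receptors (LXRs) and the main genes that they control in macrophages were followed through a TLR4 response in bone marrow-derived macrophages (BMDMs) with and without Bmal1, the clock transcription factor encoded by Arntl. The set held 10 of the 24016 genes measured. Nr1h3 (LXRα) and Nr1h2 (LXRβ) are the receptors. Abca1, Abcg1, Apoe, Pltp, Lpl, Mylip, Lpcat3 and Cd5l are target genes. The first 7 of them handle cholesterol, lipoproteins and phospholipids, and Cd5l encodes a secreted protein. The genes were chosen by these known roles with their levels in these libraries already known, so the values below are a description and none carries a test.

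LXRs are nuclear receptors that sense oxysterols and desmosterol, the sterols that build up when a cell is loaded with cholesterol. Bound to DNA with a retinoid X receptor (RXR) partner, they switch on genes that pump cholesterol out, carry it away on lipoproteins, slow its uptake and remodel membrane phospholipids. In macrophages TLR4 signaling and LXR signaling are known to restrain each other, and Cd5l is known as an LXR target that protects the cell from death.

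PolyA RNA was sequenced from BMDMs of male C57BL/6J wild-type (WT) mice and of Arntl-/- mice, whose strain the labels also give as C57BL/6J, 6 to 9 weeks old. Marrow cells of both genotypes were grown for 6 days with M-CSF, the growth factor that turns them into macrophages. The cells were then left untreated (0 h) or exposed to Kdo2-lipid A (KLA), the part of bacterial lipopolysaccharide that TLR4 recognizes, for 6, 24 or 48 h. Each of the 8 conditions had 1 library. The Arntl-/- label names a deletion in the whole animal, not in macrophages alone. The WT animals are given as purchased mice in one place and as littermates in another, and the number of mice behind a culture and the KLA dose of these cultures are not given in the sources used here.

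The libraries held 8587557 to 27036775 reads on genes, and the deepest was WT at 6 h. The deposited FPKM were divided by a size factor for each library, and the result is called the scaled FPKM. FPKM are per length, so levels of different genes can be compared. A log2 ratio was computed after adding 0.1 to each scaled FPKM. The 95% intervals cover only the counting of reads, because with 1 library a condition the spread between cultures is unknown. A difference is called here when it reached 1.5-fold, and counts are set beside the share of all genes analyzed that did the same. The genes analyzed were those whose highest scaled FPKM times length in kb in WT BMDMs was at least 74.5, and all 10 genes were among them. The scaled FPKM of Arntl itself ran from 32.3 to 38.7 in WT BMDMs and from 11.3 to 20.2 in Arntl-/- BMDMs, where 75 to 136 reads a library still fell on the gene. In WT BMDMs at 6 h the 972 most highly expressed genes had a median log2 difference of -0.36 from their average level, in Arntl-/- BMDMs at 0 h one of -0.20, and in the WT and Arntl-/- libraries of 48 h one of 0.31 and 0.25. Apoe, Lpl and Pltp are among these genes (ranks 87, 229 and 331 by mean level). For them a second value, corrected for expression level with a lowess curve, is given where it changes the reading. Of 10 macrophage markers, 9 were in the table, and 0 of these 9 differed 1.5-fold between the genotypes at any time, where 1.58 to 4.91% of all genes did so in each direction. Their median log2 ratio of Arntl-/- to WT BMDMs was -0.24, 0.41, -0.14 and -0.09 at 0, 6, 24 and 48 h, with all-gene medians between -0.02 and 0.01. The medians of the 972 most highly expressed genes were close to those of the markers, at -0.18, 0.34, -0.14 and -0.06.

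Promoter windows of 8 of the 10 genes were found in RefSeq (GRCm38.p6), each with 250 bases before and 50 after a start site, and each window was located by exact match in mm9, the build of the deposited files. Abcg1 and Lpl had no entry. The windows of 3 genes are printed because the genes behind them gave an early dip and a late rise in both genotypes (Abca1) and the largest differences between the genotypes (Nr1h3 and Cd5l). In the Abca1 window, at chr4:53172718-53173017 on the minus strand, the first run of capitals is the E-box CACGTG, the sequence that Bmal1 and its partner Clock bind, at -147 to -142 from the start. The second run, at -67 to -53, holds on the opposite strand a repeat of the receptor half-site in the looser form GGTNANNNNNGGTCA, which was written after the sequences were seen. The Nr1h3 window (chr2:91035224-91035523, minus strand) and the Cd5l window (chr3:87161553-87161852, plus strand) held none of the motifs searched, and their capitals mark the 50 bases after the start.
Abca1: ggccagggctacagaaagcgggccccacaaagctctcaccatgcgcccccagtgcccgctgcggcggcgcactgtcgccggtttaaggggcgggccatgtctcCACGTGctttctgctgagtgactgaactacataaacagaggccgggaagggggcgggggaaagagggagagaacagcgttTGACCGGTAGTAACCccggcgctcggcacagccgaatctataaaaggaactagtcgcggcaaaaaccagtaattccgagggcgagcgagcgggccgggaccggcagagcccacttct
Nr1h3: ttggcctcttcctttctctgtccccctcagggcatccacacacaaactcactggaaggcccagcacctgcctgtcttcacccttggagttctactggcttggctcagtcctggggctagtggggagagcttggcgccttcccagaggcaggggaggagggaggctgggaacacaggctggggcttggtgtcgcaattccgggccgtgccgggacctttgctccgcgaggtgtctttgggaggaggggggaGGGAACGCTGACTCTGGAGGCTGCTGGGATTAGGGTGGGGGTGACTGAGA
Cd5l: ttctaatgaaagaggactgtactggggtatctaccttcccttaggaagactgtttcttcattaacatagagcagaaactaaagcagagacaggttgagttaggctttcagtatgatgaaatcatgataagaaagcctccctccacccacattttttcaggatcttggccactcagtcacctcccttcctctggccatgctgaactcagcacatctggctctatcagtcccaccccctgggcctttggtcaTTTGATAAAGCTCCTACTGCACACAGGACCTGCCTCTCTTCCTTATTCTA
Both strands were searched in all 32851 windows of the table. CACGTG was found in 7.15% of them, and among the 8 genes in Abca1 only. The looser repeat was found in 0.207%. AGGTCA repeated after 4 bases with at most 1 mismatch in each copy, the usual LXR-RXR element, was found in 1.75% and in none of the windows of the 8 genes. ANTAGGTCA, the element of the clock receptors ROR and REV-ERB, was found in 0.661% and likewise in none of them. A match is a match of letters, and binding was not analysed here.

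The 2 receptors behaved differently (RefSeq NM_001177730 for Nr1h3, mm9 chr2:91024218-91035273, and NM_001285518 for Nr1h2, chr7:51804986-51809335, both on the minus strand). In WT BMDMs the scaled FPKM of Nr1h3 climbed through 159.7, 206, 222 and 259 at 0, 6, 24 and 48 h. The Arntl-/- values were 122, 189, 188 and 120.5 (682, 861, 843 and 277 reads), an early rise followed by a return to the starting level. The courses were closest at 6 h and farthest apart at 48 h. The log2 ratio of Arntl-/- to WT was -0.39, -0.12, -0.24 and -1.10 at the 4 times. At 48 h Nr1h3 was therefore 2.15-fold lower in Arntl-/- BMDMs, with a counting interval of 1.86 to 2.49. Between 24 and 48 h it changed by a log2 of 0.22 in WT BMDMs and of -0.64 in Arntl-/- BMDMs, and the latter became -0.58, just short of 1.5-fold, after correction for expression level.

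Nr1h2 was the more abundant receptor in every library. It was at 322, 315, 364 and 438 scaled FPKM in WT BMDMs and at 347, 368, 421 and 444 in Arntl-/- BMDMs. Across the 8 libraries its highest level was 1.41-fold its lowest, and the genotypes differed by a log2 ratio of 0.02 to 0.22 with no call. There were 0.495, 0.654, 0.610 and 0.592 Nr1h3 FPKM for each Nr1h2 FPKM in WT BMDMs at 0, 6, 24 and 48 h, a ratio that needs no scaling between libraries. In Arntl-/- BMDMs there were 0.351, 0.515, 0.447 and 0.271. At each time the ratio was lower in Arntl-/- BMDMs, although the ratio in Arntl-/- BMDMs at 6 h was above that in WT BMDMs at 0 h.

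**Figure D1:**
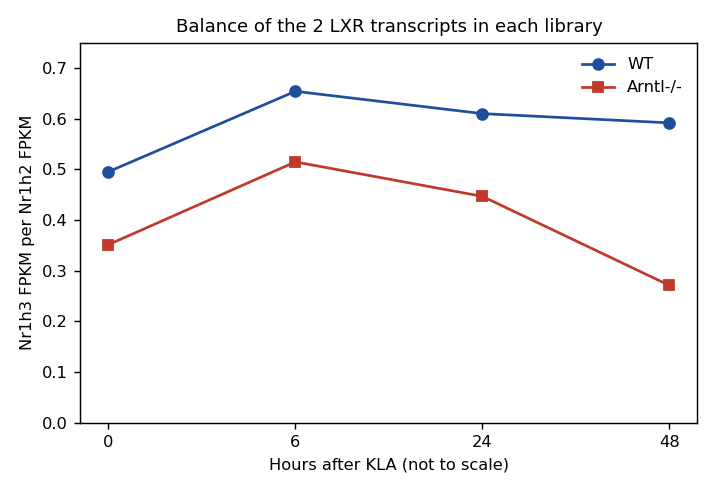
Nr1h3 FPKM for each Nr1h2 FPKM (vertical axis, linear from 0) against hours after KLA, with WT as blue circles and Arntl-/- as red squares, 1 library per point and no error bar. The WT ratio stays between 0.592 and 0.654 after KLA, and the Arntl-/- ratio ends at 0.271.

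Abca1 and Abcg1 are the pumps that export cholesterol, Abca1 to lipid-poor apolipoprotein A-I and Abcg1 to HDL particles. Abca1 (NM_013454, chr4:53043661-53172767, minus strand) dipped and then rose in both genotypes. It was at 195, 124, 422 and 299.95 scaled FPKM in WT BMDMs, and at 184, 145, 359.8 and 351 in Arntl-/- BMDMs. From 0 to 6 h it fell by 0.66 on the log2 scale in WT BMDMs and by 0.34 in Arntl-/- BMDMs. The WT fall was 1.58-fold as scaled and 1.41-fold with the values as deposited, where it no longer reached 1.5-fold. From 0 to 24 h it rose 2.16-fold in WT BMDMs (counting interval 2.08 to 2.25) and 1.96-fold in Arntl-/- BMDMs (1.90 to 2.03). After the peak the courses parted, with a log2 change of -0.49 from 24 to 48 h in WT BMDMs (-0.59, past 1.5-fold, as deposited) and of -0.03 in Arntl-/- BMDMs. The genotypes differed by a log2 ratio of -0.09, 0.23, -0.23 and 0.23 at 0, 6, 24 and 48 h, which changed sign along the course and never reached 1.5-fold.

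Abcg1 (NM_009593, chr17:31194639-31254926, plus strand) shared the rise of Abca1 at 24 h but kept rising to 48 h. Its scaled FPKM was 133.5, 117, 222 and 276 in WT BMDMs and 118, 98.8, 216 and 266 in Arntl-/- BMDMs. The rise from 0 to 24 h was 1.66-fold in WT BMDMs (counting interval 1.56 to 1.77) and 1.83-fold in Arntl-/- BMDMs (1.73 to 1.94). Its log2 ratio of Arntl-/- to WT was -0.18, -0.25, -0.04 and -0.05. The 2 genotypes thus had nearly the same Abcg1 course, and the small difference at 24 h changed sign (0.01) with the values as deposited.

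**Figure D2:**
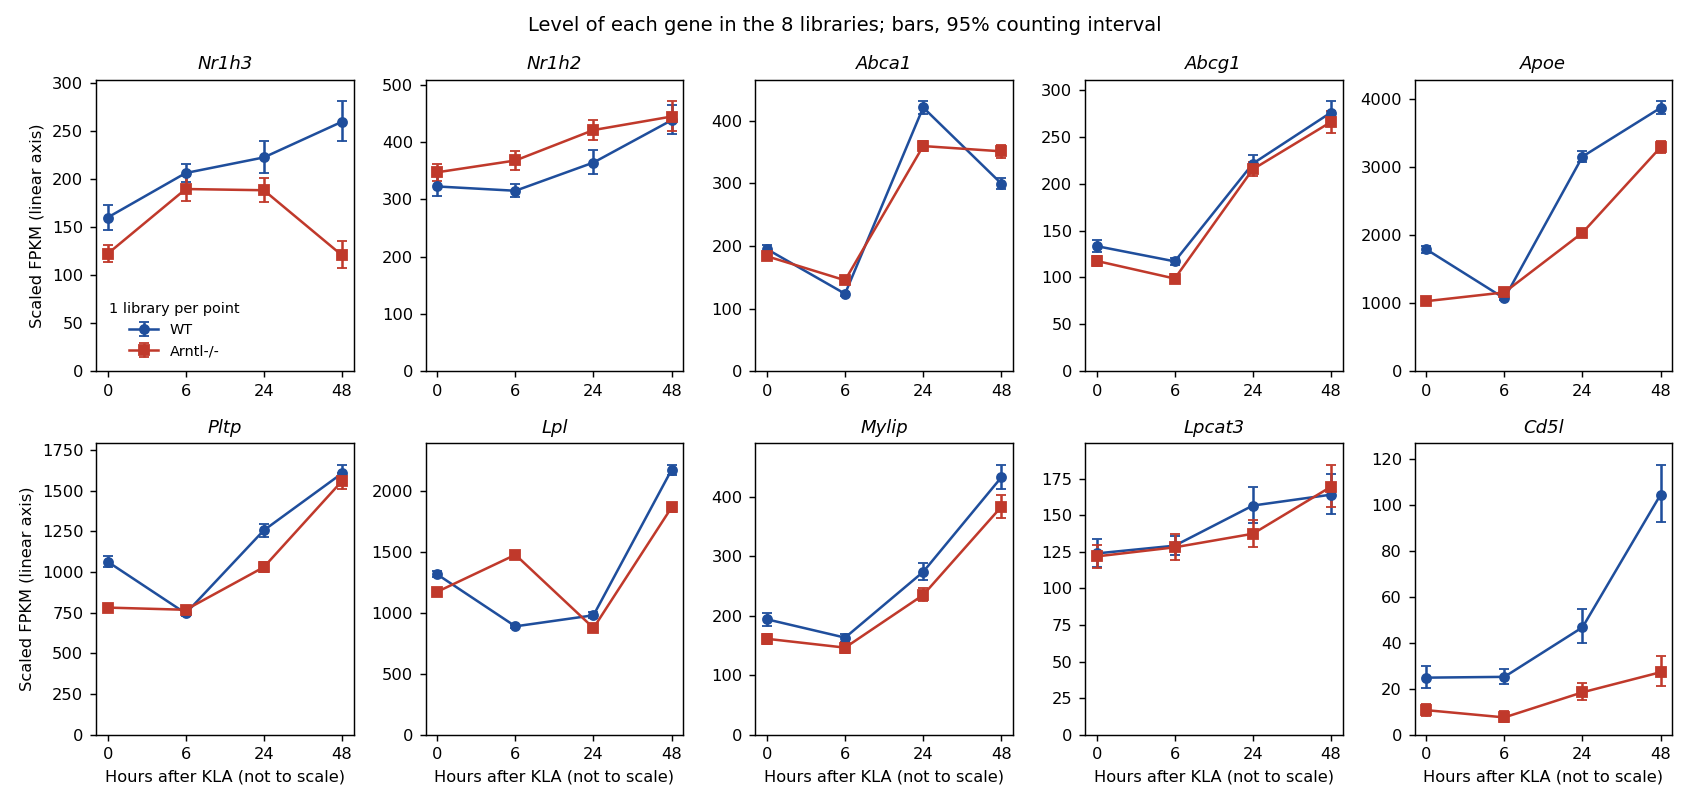
Scaled FPKM of the 10 genes (linear axes from 0, 1 panel per gene) at 0, 6, 24 and 48 h after KLA in WT BMDMs (blue circles) and Arntl-/- BMDMs (red squares), 1 library per point, with bars for the 95% counting interval. Abca1, Abcg1, Apoe and Mylip rise from 6 to 24 h in both genotypes, Nr1h3 parts at 48 h, and Cd5l is lower in Arntl-/- BMDMs at each time.

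Apoe, Pltp and Lpl act on lipoproteins. Apoe, the apolipoprotein that macrophages secrete to carry cholesterol away, was the most abundant of the 10 genes at 24 and 48 h in both genotypes (NM_009696, chr7:20281593-20284515, minus strand). It was at 1789.6, 1069, 3152 and 3868 scaled FPKM in WT BMDMs and at 1028, 1157, 2034 and 3289 in Arntl-/- BMDMs. The log2 ratio between the genotypes was -0.80, 0.11, -0.63 and -0.23 along the course. The value at 6 h changed sign (-0.02) as deposited. Corrected for expression level it was -0.51, -0.39, -0.39 and -0.16, lower in Arntl-/- BMDMs at all 4 times and past 1.5-fold at none of them. At 24 h the ratio as deposited was -0.58, also just short of 1.5-fold. Apoe more than recovered after its low at 6 h in WT BMDMs. Its rise from 0 to 24 h was 1.76-fold in WT BMDMs and 1.98-fold in Arntl-/- BMDMs, and it stayed past 1.5-fold after the correction (log2 of 0.67 and 0.78). The WT fall from 0 to 6 h (log2 of -0.74) shrank to -0.20 after it, and the Arntl-/- rise from 24 to 48 h (0.69) shrank to 0.19.

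Pltp, the phospholipid transfer protein that remodels HDL, followed Apoe at lower amplitude (NM_011125, chr2:164665018-164683208, minus strand). It was at 1064, 747, 1257 and 1607 scaled FPKM in WT BMDMs and at 782, 769, 1031 and 1559.7 in Arntl-/- BMDMs. The genotypes differed by a log2 ratio of -0.44, 0.04, -0.29 and -0.04, none past 1.5-fold. The values at 6 and 48 h changed sign after correction for expression level (-0.35 and 0.005). Its Arntl-/- rise from 24 to 48 h, 1.51-fold, was 1.41-fold as deposited and 1.19-fold after correction for expression level. Pltp overlaps Ctsa, a gene on the other strand with 7106 to 13832 reads a library. The reads were counted on both strands, so the part of Ctsa in the Pltp values cannot be told apart.

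Lpl, the lipase that releases fatty acids from triglyceride, had a late rise (NM_008509, chr8:71404454-71430831, plus strand). It was at 1317, 890.4, 981 and 2176 scaled FPKM in WT BMDMs and at 1175, 1478, 877 and 1867 in Arntl-/- BMDMs. From 24 to 48 h it rose 2.22-fold in WT BMDMs (counting interval 2.15 to 2.29) and 2.13-fold in Arntl-/- BMDMs (2.07 to 2.19). Both rises remained past 1.5-fold after correction for expression level, with log2 values of 0.89 and 0.69. Lpl was the only 1 of the 10 genes to be called higher in Arntl-/- BMDMs at any time, by 1.66-fold at 6 h. At the other times its log2 ratio was -0.16, -0.16 and -0.22 at 0, 24 and 48 h, and the first and second of these changed sign after the correction (0.07 and 0.03). After the correction the 6 h difference was 1.23-fold, and its log2 of 0.73 stood beside a median of 0.34 for the 972 most highly expressed genes in the same comparison. From 0 to 24 h Lpl fell by a log2 of 0.42 in each genotype. Once corrected, the fall was 0.55 in WT BMDMs and 0.59, past 1.5-fold, in Arntl-/- BMDMs.

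Mylip and Lpcat3 act on uptake and on membranes. Mylip (NM_153789, chr13:45485111-45507309, plus strand) encodes IDOL, a ubiquitin ligase that limits lipoprotein uptake. It was at 194, 163, 274 and 433 scaled FPKM in WT BMDMs and at 161.5, 147, 235 and 384 in Arntl-/- BMDMs. From 24 to 48 h it rose 1.58-fold in WT BMDMs and 1.63-fold in Arntl-/- BMDMs, though the WT value was 1.47-fold as deposited. Its log2 ratio between the genotypes stayed within -0.16 and -0.27. Lpcat3 (NM_145130, chr6:124613122-124654734, plus strand), which puts polyunsaturated fatty acids into phospholipids, was the flattest of the 10 genes. It was at 124, 129, 157 and 164 scaled FPKM in WT BMDMs and at 122, 128, 137 and 169 in Arntl-/- BMDMs, a range of 1.39-fold in all, and no comparison called it. Lpcat3 overlaps the 3′ end of the neighboring gene Emg1 on the other strand (406 to 1596 reads), whose part cannot be told apart either.

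Cd5l (NM_009690, chr3:87161803-87174996, plus strand) encodes AIM, a secreted scavenger-receptor protein that blocks apoptosis of macrophages. Its WT levels were 24.9, 25.2, 46.8 and 105 scaled FPKM at 0, 6, 24 and 48 h (107, 250, 159 and 283 reads). Its Arntl-/- levels were 10.7, 7.56, 18.5 and 27.2 (68, 39, 94 and 71 reads). At each time Arntl-/- BMDMs were lower, but the genotypes overlapped over the whole course, since Arntl-/- BMDMs at 48 h were above WT BMDMs at 0 and 6 h. The deficit began at 2.31-fold before KLA (counting interval 1.69 to 3.19). It was 3.30-fold after 6 h (2.37 to 4.80), 2.52-fold after 24 h (1.95 to 3.30) and 3.83-fold after 48 h (2.95 to 5.05). Over the 4 times the mean log2 ratio was -1.55, as scaled, and -1.54 after correction for expression level. Both genotypes raised Cd5l late. From 0 to 24 h the rise was 1.88-fold in WT BMDMs (1.46 to 2.43) and 1.72-fold in Arntl-/- BMDMs (1.25 to 2.39), and from 24 to 48 h it was 2.23-fold (1.83 to 2.73) and 1.47-fold (1.07 to 2.03), so the intervals of the genotypes overlapped at both steps. The last of these was 1.55-fold, past the threshold, after correction for expression level. In bulk RNA, fewer cells that express Cd5l and less Cd5l RNA in each cell cannot be told apart.

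**Figure D3:**
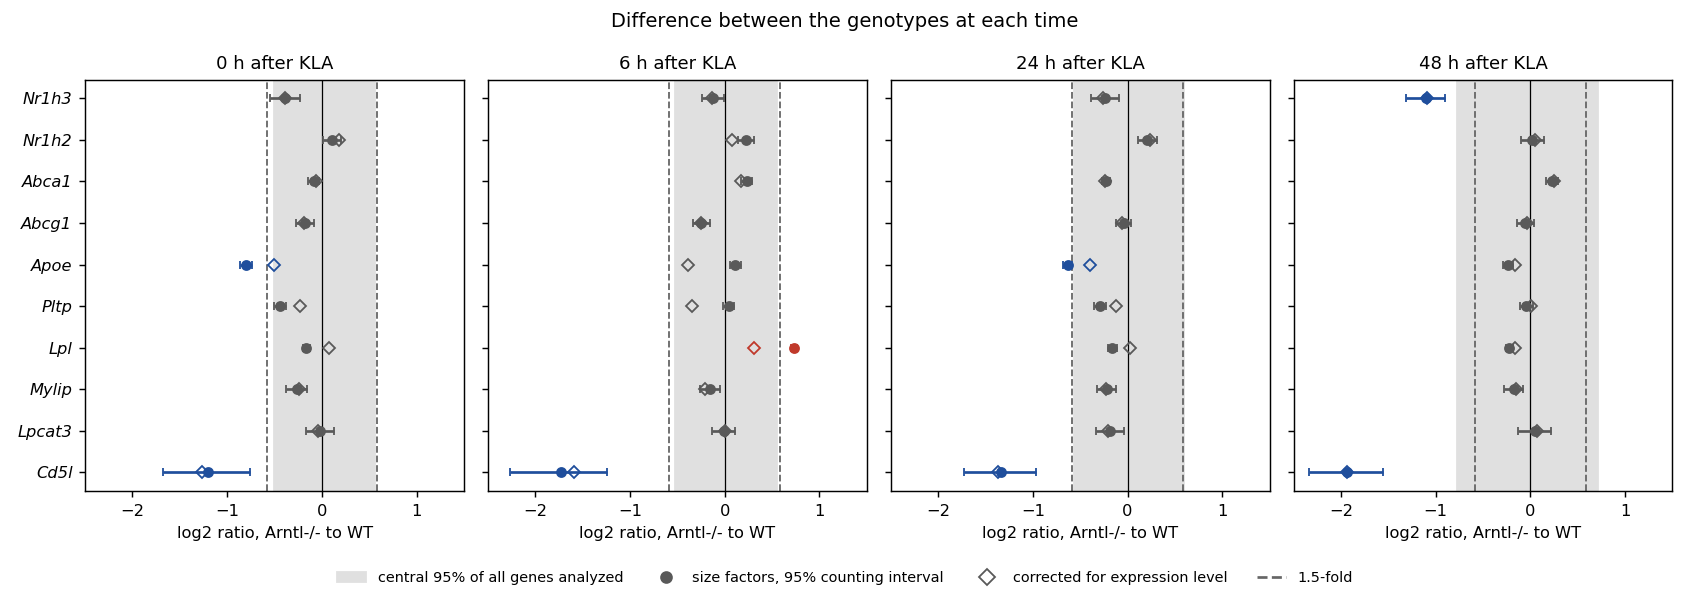
Log2 ratio of Arntl-/- to WT for each gene at 0, 6, 24 and 48 h (1 panel per time), with filled circles and bars for the scaled value and its 95% counting interval, open diamonds for the value corrected for expression level, dashed lines at 1.5-fold and gray for the central 95% of all genes analyzed. Blue marks genes called lower and red the gene called higher. Cd5l lies left of the gray band in all 4 panels and Nr1h3 at 48 h only. As scaled, Apoe also lies left of it at 0 and 24 h, and Lpl lies right of it at 6 h. The diamonds of Apoe at 0 and 24 h and of Lpl at 6 h fall inside the 1.5-fold lines.

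By count, the genotype differences were few. At 0 h, 2 of the 10 genes were called lower (Apoe and Cd5l) beside 1.58% of all genes analyzed, and 0 higher beside 2.18%. At 6 h, 1 was called lower (Cd5l) beside 1.78% and 1 higher (Lpl) beside 1.88%. At 24 h, 2 were called lower (Apoe and Cd5l) beside 2.2% and 0 higher beside 2.61%. At 48 h, 2 were called lower (Nr1h3 and Cd5l) beside 4.91% and 0 higher beside 4.27%. The counts rest on at most 2 genes a comparison, and Cd5l is in each of them. The median log2 ratio of the 10 genes was -0.22, 0.01, -0.22 and -0.11 at the 4 times, beside -0.02, 0.01, -0.005 and -0.02 for all genes analyzed. After correction for expression level the value at 6 h was -0.17, beside -0.01 for all genes. Leaving out the size factors shifted the all-gene median at 6 h to -0.12. Arntl-/- BMDMs were lower at all 4 times for 4 of the 10 genes (Nr1h3, Abcg1, Mylip and Cd5l) beside 7.53% of all genes. Abcg1 left this group with the values as deposited, and Apoe joined it after correction for expression level and with the values as deposited. Pltp joined it with upper-quartile scaling. Arntl-/- BMDMs were at least 1.5-fold lower at all 4 times for Cd5l alone, beside 0.123%, or 12 genes. The choice of genes analyzed rests on the WT libraries, and Cd5l reached its level only in WT BMDMs at 24 and 48 h, so this choice favors calls in the lower direction. These members were picked with such differences known, so the shares show only how common each pattern was.

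More of the 10 genes were called over the later steps after KLA than between the genotypes. The comparisons with 0 h share that library within a genotype, so they are given side by side. From 0 to 6 h in WT BMDMs, 2 of the 10 genes were lower (Abca1 and Apoe) beside 3.29% of all genes and 0 were higher beside 4.31%. In Arntl-/- BMDMs 1 was higher (Nr1h3, 1.55-fold as scaled and 1.49-fold as deposited) beside 2.79% and 0 were lower beside 2.58%. Leaving out the size factors shifted the all-gene median of the WT step from -0.03 to 0.12. From 0 to 24 h in WT BMDMs, 4 were higher (Abca1, Abcg1, Apoe and Cd5l) beside 7.94% and 0 lower beside 7.91%. In Arntl-/- BMDMs these 4 and Nr1h3 were higher, which is 5 of 10 beside 7.35%, with 0 lower beside 8.65%. The Nr1h3 rise was 1.54-fold as scaled, 1.47-fold as deposited and 1.49-fold with upper-quartile scaling. From 24 to 48 h in WT BMDMs, 3 were higher (Lpl, Mylip and Cd5l) beside 7.04% and 0 lower beside 8.69%. In Arntl-/- BMDMs 4 were higher (Apoe, Pltp, Lpl and Mylip) beside 5.84%, and 1 was lower (Nr1h3) beside 8.33%. The median log2 change of the 10 genes from 0 to 24 h was 0.49 in WT BMDMs and 0.58 in Arntl-/- BMDMs, beside -0.0009 and 0.02 for all genes.

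**Figure D4:**
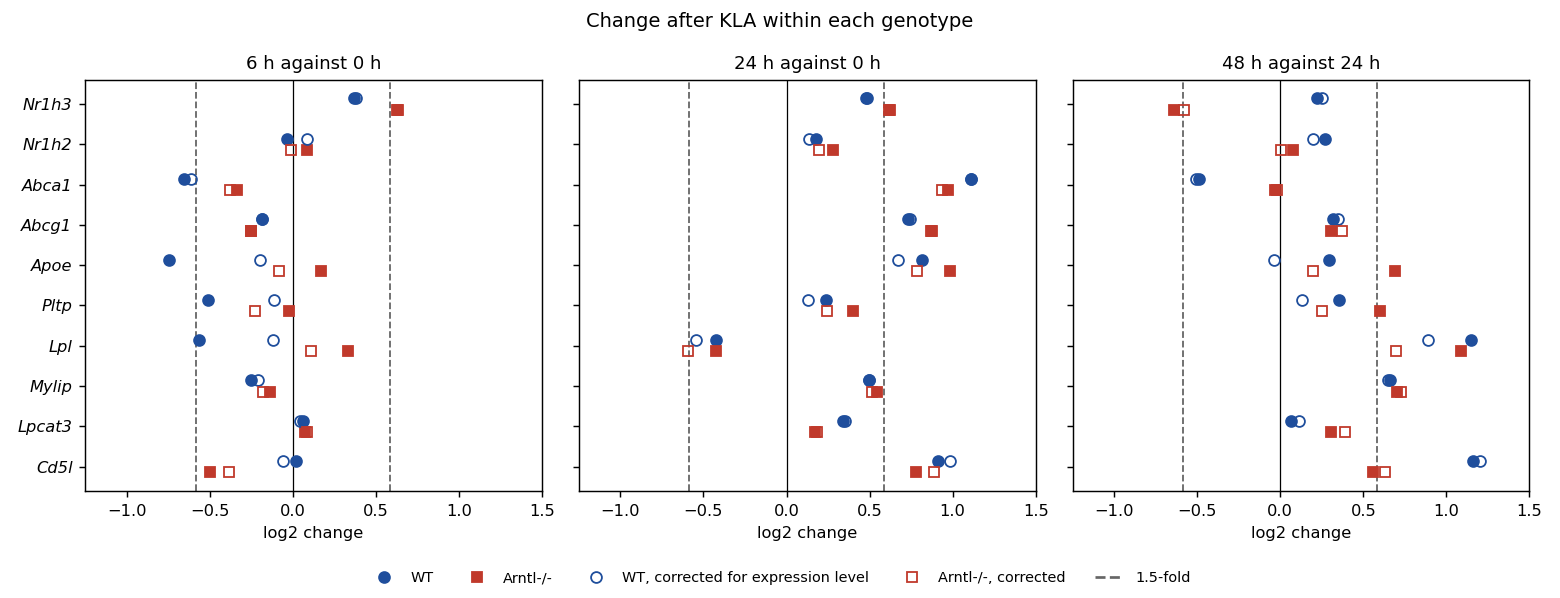
Log2 change of each gene from 0 to 6 h, from 0 to 24 h and from 24 to 48 h after KLA (1 panel per step) in WT BMDMs (blue circles) and Arntl-/- BMDMs (red squares), filled as scaled and open after correction for expression level, with dashed lines at 1.5-fold. Abca1, Abcg1, Apoe and Cd5l lie right of the 1.5-fold line at 24 h in both genotypes, and Lpl and Mylip do so from 24 to 48 h.

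Genes that make or remove LXR ligands showed 1 recurrent difference. Ch25h makes 25-hydroxycholesterol and is known to be induced by TLR4. It was at 39.9, 149.8, 55.8 and 79.5 scaled FPKM in WT BMDMs and at 34.2, 91.3, 24.0 and 47.9 in Arntl-/- BMDMs, peaking at 6 h in both. It was lower in Arntl-/- BMDMs by a log2 of 0.22, 0.71, 1.21 and 0.73, that is 1.64-fold at 6 h (counting interval 1.44 to 1.87), 2.32-fold at 24 h (1.75 to 3.11) and 1.66-fold at 48 h (1.26 to 2.20). Within each genotype, Abca1 and Abcg1 were at their lowest when Ch25h was at its highest. Of the 7 genes of oxysterol and desmosterol metabolism, 4 were analyzed, and 0, 2, 1 and 1 of them were called lower in Arntl-/- BMDMs at 0, 6, 24 and 48 h, beside 1.58, 1.78, 2.2 and 4.91% of all genes analyzed. The second at 6 h was Cyp27a1 (log2 of -0.67, and -0.56 after correction for expression level, short of 1.5-fold), which makes 27-hydroxycholesterol. None was called higher.

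The other parts of the pathway were counted in the same way. Of 10 RXR partners and cofactors, 9 were analyzed, and 0 were called in either direction at any of the 4 times. With 1.58 to 4.91% of all genes called in each direction, this is near the background for so few genes. Of 15 other LXR targets, 7 were analyzed, and the only call between the genotypes was Apoc2, an activator of lipoprotein lipase, with a log2 of 0.75 at 48 h, where 4.27% of all genes analyzed were called higher. Apoc2 rose by 1.60 from 0 to 24 h in WT BMDMs and by 1.77 in Arntl-/- BMDMs on the log2 scale. Over this step 3 of the 7 were called higher and 1 lower in each genotype, beside 7.94% higher and 7.91% lower of all genes in WT BMDMs and 7.35% and 8.65% in Arntl-/- BMDMs. The others called higher were Arl4c (log2 of 0.66 in WT and 0.78 in Arntl-/- BMDMs), the desaturase gene Scd2 in WT BMDMs (0.76) and Mertk in Arntl-/- BMDMs (0.61). The gene called lower was Fasn, the fatty acid synthase, which fell by 0.60 and 0.82, and in WT BMDMs by 0.55 after correction for expression level, short of 1.5-fold. Of 15 genes of cholesterol uptake, storage and trafficking, 14 were analyzed, and 1, 2, 0 and 0 were called higher, beside 2.18, 1.88, 2.61 and 4.27% of all genes analyzed, and none lower. They were Vldlr, a lipoprotein receptor, at 0 and 6 h (log2 of 0.94 and 1.26, from as few as 35 reads) and Plin2, a lipid droplet protein, at 6 h (0.73, and 0.27 after correction for expression level). Vldlr was also higher at 24 and 48 h (0.38 and 0.57). Its value at 48 h was 0.74, past 1.5-fold, after the correction. Of 4 genes that mature or inhibit lipoprotein lipase, 2 were analyzed, and neither was called between the genotypes.

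The genes whose course over the 8 libraries was most like 3 of the members were ranked by Pearson's r of log2 values among the genes analyzed, as a description over libraries that share their depth and scaling. Nr1h3 was closest to Batf (r = 0.943), Rabepk (0.907), Fmn1 (0.901), Trappc5 (0.896) and Prrg2 (0.888). Abca1 was closest to Ift140 (0.979), Dmxl2 (0.977), Evi5 (0.974), Sgms2 (0.970) and Fbxl20 (0.968). Cd5l was closest to Sparc (0.972), Ednrb (0.969), Col3a1 (0.947), Pja2 (0.935) and Akirin2 (0.927). No other of the 10 genes was among these 5 for any of them.

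Sparc and Col3a1 are matrix genes of stromal cells, and both were on the list of stromal markers. Sparc was at 91.0, 105, 143 and 283 scaled FPKM in WT BMDMs and at 58.1, 57.0, 67.6 and 111 in Arntl-/- BMDMs. Col3a1 was at 80.4, 104, 125 and 187 in WT BMDMs and at 43.4, 42.6, 46.9 and 89.7 in Arntl-/- BMDMs. Both moved in the same direction as Cd5l, with mean log2 ratios of -0.99 and -1.16 beside -1.55 for Cd5l. Of the 10 stromal markers 6 were analyzed, and 3, 2, 3 and 4 of them were called lower in Arntl-/- BMDMs at 0, 6, 24 and 48 h, beside 1.58, 1.78, 2.2 and 4.91% of all genes analyzed. Pdgfrb, called lower at 0 h, reached its level only in WT BMDMs, so the choice of genes analyzed favors lower calls here too. The call that went the other way was Dcn at 0 h (log2 of 1.21), and its ratio was -0.28, 0.34 and 0.55 at 6, 24 and 48 h. Lum, below the level for analysis, was higher in Arntl-/- BMDMs at 0, 6 and 48 h (0.59, 1.88 and 0.24) and lower at 24 h (-0.31). Cxcl12, also below it, was at 4.03, 8.63, 1.91 and 5.60 scaled FPKM in WT BMDMs and at 4.45, 6.72, 0 and 0 in Arntl-/- BMDMs. The summed level of the stromal list ran from 489.7 to 1374 in WT BMDMs and from 369 to 782 in Arntl-/- BMDMs. Col1a1 was at 125 to 525 scaled FPKM over the 8 libraries, Col1a2 at 89.4 to 292, Dcn at 16.8 to 91.3 and Pdgfrb at 4.40 to 14.9, while Thy1, Pdgfra and Lum were at 0 to 9.03. The part of these cells in the Cd5l difference was not tested.

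Cd5l was also set against Emr1 (F4/80), which is 1 macrophage gene, and against Sparc. For each 1000 FPKM of Emr1 there were 11.9, 17.3, 19.0 and 28.8 FPKM of Cd5l in WT BMDMs and 6.54, 3.98, 8.70 and 8.56 in Arntl-/- BMDMs. Emr1 is highly expressed, and at 6 h its own log2 ratio of Arntl-/- to WT BMDMs was 0.38, and -0.15 after correction for expression level. That of Cd5l was -1.72 and -1.59, so the gap in Cd5l for each Emr1 at 6 h was smaller with the corrected values. Set against Sparc, there were 0.273, 0.240, 0.327 and 0.370 FPKM of Cd5l for each FPKM in WT BMDMs and 0.185, 0.133, 0.274 and 0.245 in Arntl-/- BMDMs. At each time the ratio to Sparc was lower in Arntl-/- BMDMs, but the 2 ranges overlapped. Macrophages that live in tissues are rich in Cd5l, and of 8 resident macrophage markers 2 were analyzed. Marco was called lower in Arntl-/- BMDMs at 0 h (log2 of -0.81) and Folr2 at 0, 6 and 24 h (-0.60, -0.69 and -0.84), beside 1.58, 1.78 and 2.2% of all genes called lower at 0, 6 and 24 h. After correction for expression level the values at 0 h were -0.52 for Marco and -0.57 for Folr2, both short of 1.5-fold, and Marco was higher in Arntl-/- BMDMs at 6 h without the correction (0.41). The summed level of this list ran from 1553 to 4112 in WT BMDMs and from 1301 to 3286 in Arntl-/- BMDMs. Its markers Timd4, Vsig4, Clec4f and Lyve1 were at 0 or from at most 4 reads in every library. Spic (24 to 112 reads, log2 of -0.33, -0.19, -0.55 and -1.31) and Cd163 (20 to 204 reads, log2 of -0.67, -0.88, -0.11 and 1.41) were present but below the level for analysis. The part of resident macrophages in the Cd5l difference was not tested.

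**Figure D5:**
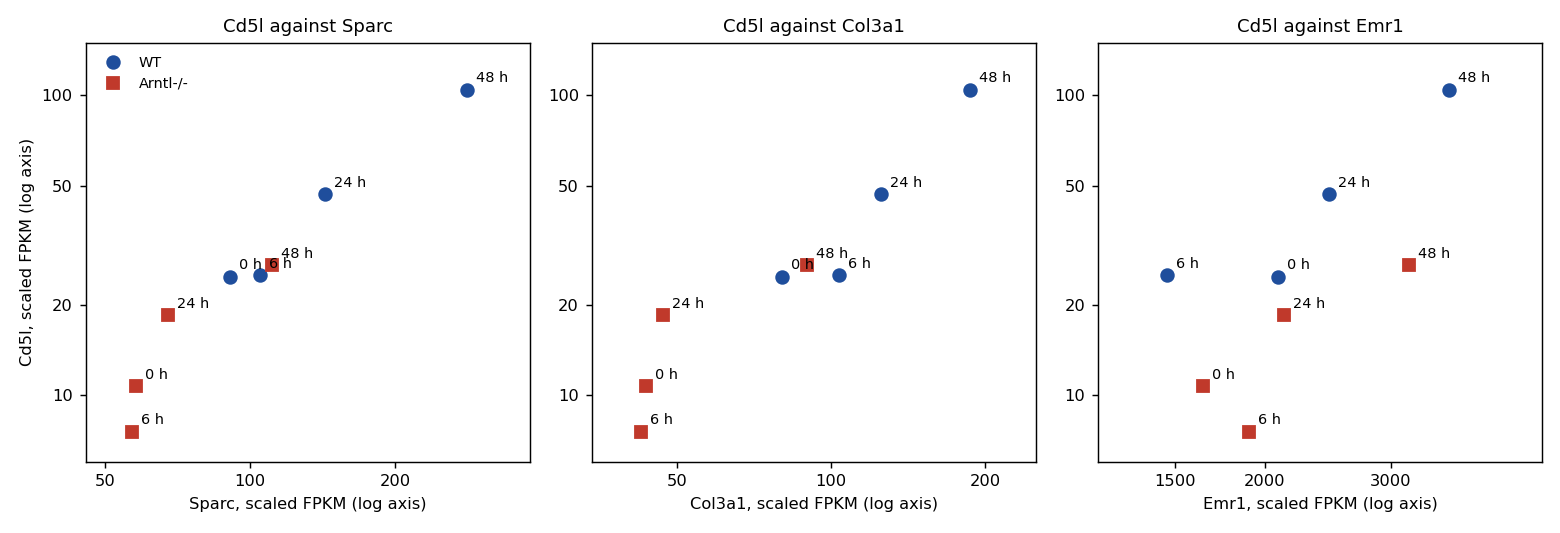
Cd5l (vertical axis) against Sparc, Col3a1 and Emr1 (horizontal axes), all in scaled FPKM on log axes, with WT libraries as blue circles, Arntl-/- libraries as red squares and the hours after KLA beside each point. Cd5l rises with Sparc and with Col3a1 across both genotypes, whereas at a like level of Emr1 the Arntl-/- libraries have less Cd5l than the WT libraries.

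The other cell type lists were also read beside these values. Of 8 neutrophil markers 7 were in the table and 2 were analyzed. S100a9 was called higher in Arntl-/- BMDMs at 0, 6 and 24 h (log2 of 1.30, 1.04 and 1.32) and S100a8 at 6 h (0.87), beside 2.18, 1.88 and 2.61% of all genes at 0, 6 and 24 h. At 48 h the log2 ratio of S100a9 was -0.17, from 6 reads in Arntl-/- and 7 in WT BMDMs. From 24 to 48 h S100a9 fell from 148 to 10.1 scaled FPKM in WT BMDMs and from 371 to 9.00 in Arntl-/- BMDMs. The log2 ratio of S100a8 was 0.38 at 0 h, -0.06 at 24 h and -0.008 at 48 h. Ngp and Camp, granule genes below the level for analysis, were higher in Arntl-/- BMDMs at each time. That level rests on the WT libraries, so genes higher in Arntl-/- BMDMs could miss it. The log2 ratio of Ngp was 1.16, 0.73 and 1.16 at 0, 6 and 24 h, each past 1.5-fold. Ngp was at 37.2, 33.3, 17.1 and 0 scaled FPKM in WT BMDMs and at 83.4, 55.2, 38.4 and 2.70 in Arntl-/- BMDMs. Camp was at 0, 14.5, 10.1 and 7.58 in WT BMDMs and at 12.4, 17.9, 13.5 and 26.3 in Arntl-/- BMDMs. Cxcr2, also below that level, was at 3.10, 1.28, 1.57 and 0 in WT BMDMs and at 4.95, 0.777, 5.26 and 0 in Arntl-/- BMDMs, so it was lower at 6 h. The summed neutrophil level at 0, 6, 24 and 48 h was 512, 538, 606 and 928 scaled FPKM in WT BMDMs. In Arntl-/- BMDMs it was 905, 1015, 839 and 943. At 48 h S100a8 alone was at 910 in WT and 905 in Arntl-/- BMDMs. Mpo was at 0 in every library. Of 6 adipocyte markers, which matter for Lpl, Adipoq, Plin1, Cidec and Lep were at 0 in every library, and the 1 gene analyzed, Fabp4, was not called between the genotypes. The sixth, Pparg, was below the level for analysis (at most 62 reads). It was lower in Arntl-/- BMDMs at each time, but both genotypes were at or near 0 at 24 h. Pparg was at 5.87, 6.87, 0.324 and 12.99 scaled FPKM in WT BMDMs and at 4.16, 2.13, 0 and 5.90 in Arntl-/- BMDMs. Summed levels of this list ran from 299 to 791 in WT BMDMs and from 305 to 722 in Arntl-/- BMDMs. The dendritic cell and lymphocyte lists, 6 genes each with none analyzed, summed to at most 3.61 and 14.3 scaled FPKM. The part of neutrophils in the genotype differences was not tested.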

How the data were processed

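For the polyA RNA-seq libraries the authors used STAR (mm9) for alignment and HOMER for counting over exons of RefSeq transcripts, without regard to strand. Versions are not given in the sources used here. The FPKM values that they deposited are per 10000000 reads and per kb. The table held 24016 genes. Of its value columns 4 matched no sample and were not used, and 1 broken line was left out. The 29 ChIP-seq and input samples were not analysed here.

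The reads behind each value were recovered from the steps of FPKM times length, which are whole multiples of 1 read. Size factors (median of ratios over the 8 libraries) gave the scaled FPKM. Genes whose WT maximum of this value times length in kb reached 74.5 were analyzed. Log2 ratios used a pseudocount of 0.1, and a gene was called at 1.5-fold. Intervals are exact binomial intervals (Clopper-Pearson, 95%) on the reads of both libraries and cover counting error only. With 1 library per condition no test was made.

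The members and the gene lists were chosen with earlier results of these data known. The lists were other LXR targets, LXR partners and cofactors, oxysterol and desmosterol metabolism, cholesterol uptake, storage and trafficking, lipoprotein lipase maturation and inhibition, and markers of macrophages, resident macrophages, stromal cells, adipocytes, neutrophils, dendritic cells and lymphocytes. Named were all members, Arntl, at most 6 genes of a list per comparison among those past 1.5-fold, and the 5 genes most like Nr1h3, Abca1 and Cd5l. Thy1, Pdgfra, Lum, Spic, Cd163, Ngp, Camp, Cxcr2, Pparg, Cxcl12, the full ranges of the stromal markers and markers listed at or near 0 were named beyond this rule, after their values were seen. Emr1, against which Cd5l was set, and Ctsa and Emg1, which overlap members, were also named beyond it.

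Alternatives were upper-quartile scaling, values as deposited, pseudocounts of 1 and 0.01, genes with an FPKM of at least 1 in any library, genes ranked by their maximum over all 8 libraries, a lowess correction for expression level (fraction 0.3) and a 2-fold threshold. Simulated data for 24016 genes held counting error only, with no spread between cultures and no shift with expression level. Genes with at least 50 expected reads in every library were considered. Of these, 99.75% of 200 genes changed 2-fold and 0.0763% of unchanged genes were called in the genotype comparisons. These shares are therefore not error rates of the real comparisons. The software was samtools 1.23.1 and, under Python 3.11.15, statsmodels 0.14.6, scipy 1.17.1, pandas 2.3.3, numpy 2.4.6 and matplotlib 3.10.9.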

Additional observations from a re-analysis of the deposited data

How the results depend on the processing

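The number of the 10 genes past 1.5-fold kept within 1.5 times its value in all 10 comparisons under upper-quartile scaling, both pseudocounts and both other choices of genes. After correction for expression level it was 1 between the genotypes at 0, 6 and 24 h each, 1 for WT from 0 to 6 h and 3 for Arntl-/- from 24 to 48 h. With values as deposited it was 1 between the genotypes at 24 h, 1 for WT from 0 to 6 h and 0 for Arntl-/- from 0 to 6 h. At 2-fold it was 1 between the genotypes at 0, 6 and 24 h each, 0 for WT and for Arntl-/- from 0 to 6 h, 1 for WT and 0 for Arntl-/- from 0 to 24 h, and 1 for Arntl-/- from 24 to 48 h. Cd5l stayed past 1.5-fold between the genotypes at each time under each alternative, and Nr1h3 did so at 48 h. Of the 7 calls that ended under the correction, 6 were those of Apoe, Pltp and Lpl, which are among the most highly expressed genes, and 1 was Nr1h3 from 24 to 48 h in Arntl-/- BMDMs. The cause was not tested.

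Over all genes, counts past 1.5-fold were 356 at 6 h between the genotypes and 215 after the correction. With genes at an FPKM of at least 1 (15855 genes), the counts between the genotypes at 0, 6, 24 and 48 h were 3428, 3300, 3543 and 4340 in place of 366, 356, 468 and 892. At 2-fold they were 54, 33, 75 and 192. For the 6 steps after KLA, the counts moved from 522 to 1555 genes up to 3596 to 4889 and, at 2-fold, down to 84 to 477. With values as deposited the share of calls that were higher moved from 57.9% to 76.8%, from 51.4% to 12.9% and from 54.3% to 66.3% between the genotypes at 0, 6 and 24 h. It moved from 56.7% to 91.5% for WT from 0 to 6 h, from 44.7% to 29.1% for WT from 24 to 48 h, from 51.9% to 36.0% for Arntl-/- from 0 to 6 h and from 41.2% to 24.7% for Arntl-/- from 24 to 48 h. Upper-quartile scaling gave 27.7% between the genotypes at 6 h, 74.9% for WT and 40.7% for Arntl-/- from 0 to 6 h, where the correction gave 65.1%. Each condition had 1 library, so no fit with a replicate block was made. Cd5l rested on as few as 39 reads, so its folds are the least precise of the 10 genes.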
